A study of Mus musculus with 3072 samples.

Results

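Hif1a and 9 genes of glucose uptake and glycolysis were followed across single mouse microglia. The members were chosen by name as rows of the deposited count table: Hif1a, Slc2a1, Hk2, Aldoa, Tpi1, Gapdh, Pgk1, Eno1, Pkm and Ldha, 10 of 29474 genes. All 10 were measured in every group, and all 10 averaged at least 1 read in every 1000000 reads (RPM). The study concerned the response of microglia to amyloid plaques and how the lipid carrier gene Apoe bears on it. Counts were used for 1713 cells of male mice in 6 groups. APP/PS1-ApoeKO mice, which carry the APPswe and PS1dE9 transgenes and lack Apoe, gave 9.87% of these cells from cortex and 18.7% from hippocampus at 18 months. APP/PS1 mice, with the same transgenes and with Apoe, gave 18.2% from cortex and 15.9% from hippocampus at 17 months. C57BL/6-ApoeKO mice, without the transgenes and without Apoe, gave 18.3% from cortex at 18 months, and C57BL/6 mice gave 19% from cortex at 18 months. APP/PS1-ApoeKO mice were bred by crossing APP/PS1 with an Apoe-null breeder on C57BL/6. All cells had been sorted as live (DAPI-negative) and CD11b-positive, and their RNA was read with a form of SmartSeq2, a full-length single-cell protocol. The labels name no animals, so a group is 1 sample, a comparison of 2 groups has no replicate check, and differences between animals cannot be told apart from differences between genotypes. APP/PS1 cells from mice of 18 months were not analysed here.

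Glycolysis splits glucose into pyruvate, and lactate dehydrogenase can turn the pyruvate into lactate and so keep the pathway running. Macrophages, microglia among them, are known to draw more on glycolysis when they are activated. Hif1a encodes the oxygen-regulated subunit of the transcription factor HIF-1, whose known targets include the glucose transporter Slc2a1 and most glycolytic enzymes. Cst7 encodes cystatin F, an inhibitor of lysosomal proteases that marks the activated microglia found around plaques, so the members were also compared between cells with and without Cst7 reads.

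The groups held 74767907 to 241536311 reads, and the median cell held between 442917 reads in APP/PS1-ApoeKO hippocampus and 765704 reads in C57BL/6 cortex. Microglial markers were high in every group: P2ry12 had 4829 to 6564 RPM and Cx3cr1 had 9755 to 12691 RPM. Lyve1 of border macrophages had no reads, and Cd3e of T cells had at most 0.00531 RPM. Other markers were above 0: Mrc1 of border macrophages had up to 8.38 RPM, Ccr2 of monocytes 2.75 to 27.5 RPM and Mbp of oligodendrocytes 29.1 to 50.7 RPM. Summed markers of B cells had 418.8 to 667.4 RPM, most of it Ighm, those of astrocytes 281.6 to 370.2 RPM and those of neurons 23.6 to 71.8 RPM. Apoe itself had 0.745 RPM in APP/PS1-ApoeKO hippocampus, 0.0669 RPM in APP/PS1-ApoeKO cortex and 2.96 RPM in C57BL/6-ApoeKO cortex, against 11919 RPM in APP/PS1 hippocampus, 13406 RPM in cortex of APP/PS1 mice and 485 RPM in that of C57BL/6 mice. Sequencing lanes were shared by the C57BL/6-ApoeKO and C57BL/6 groups and by both APP/PS1 tissues. Neither APP/PS1-ApoeKO tissue had a lane in common with other groups, so in APP/PS1 mice the loss of Apoe cannot be told apart from lane or from 1 month of age.

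Per kilobase of exon and averaged over the groups, Aldoa stood highest and Pgk1 lowest. Length here is that of all annotated exons of a symbol merged, so the order of genes depends in part on the annotation. Aldoa, which splits fructose bisphosphate into triose phosphates, had 89.2 ± 24.8 RPM per kb (SD over 6 groups). Ldha, Gapdh and Tpi1 followed at 63 ± 11.2, 62.3 ± 19.1 and 62.1 ± 17.2 RPM per kb, which did not differ beyond their spread, and the spread of Aldoa overlapped with theirs. In C57BL/6 cortex Aldoa, at 51.5 RPM per kb, lay below Tpi1 at 64.3, Ldha at 58.9 and Gapdh at 56.9 RPM per kb, and in APP/PS1 cortex Tpi1 had 92.9 and Aldoa 88.9 RPM per kb. Hif1a had 33.5 ± 10.5, Pkm 32.1 ± 5.34 and Eno1 27.9 ± 9.11 RPM per kb, again within their spread of each other. Slc2a1 had 22.7 ± 5.36 and Hk2 20.9 ± 1.48 RPM per kb, and Pgk1, the enzyme of the first ATP-forming step, had 9.91 ± 2.43 RPM per kb. Hk2 varied least over the groups, with a highest level 1.18 times its lowest, and Hif1a varied most, at 2.52 times. After each cell was thinned to 100000 reads, Pgk1 was read in 9.19% to 16.2% of cells, Hif1a in 33.7% to 50.8%, Hk2 in 71.8% to 78.8% and Gapdh in 68.4% to 87%. Hif1a lies at chr12:73901375-73947530, Slc2a1 at chr4:119108711-119137983, Hk2 at chr6:82725025-82774454, Tpi1 at chr6:124810586-124814296, Gapdh at chr6:125161715-125166467, Pgk1 at chrX:106187100-106203699, Eno1 at chr4:150236721-150248879, Pkm at chr9:59656368-59679375 and Ldha at chr7:46841475-46855627 (GENCODE on GRCm38), all protein-coding. Aldoa is the symbol of 2 neighbouring genes of the annotation used for lengths, at chr7:126795234-126800751 and chr7:126800790-126809108 (GRCm38), and its reads could not be assigned to either.

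**Figure D1:**
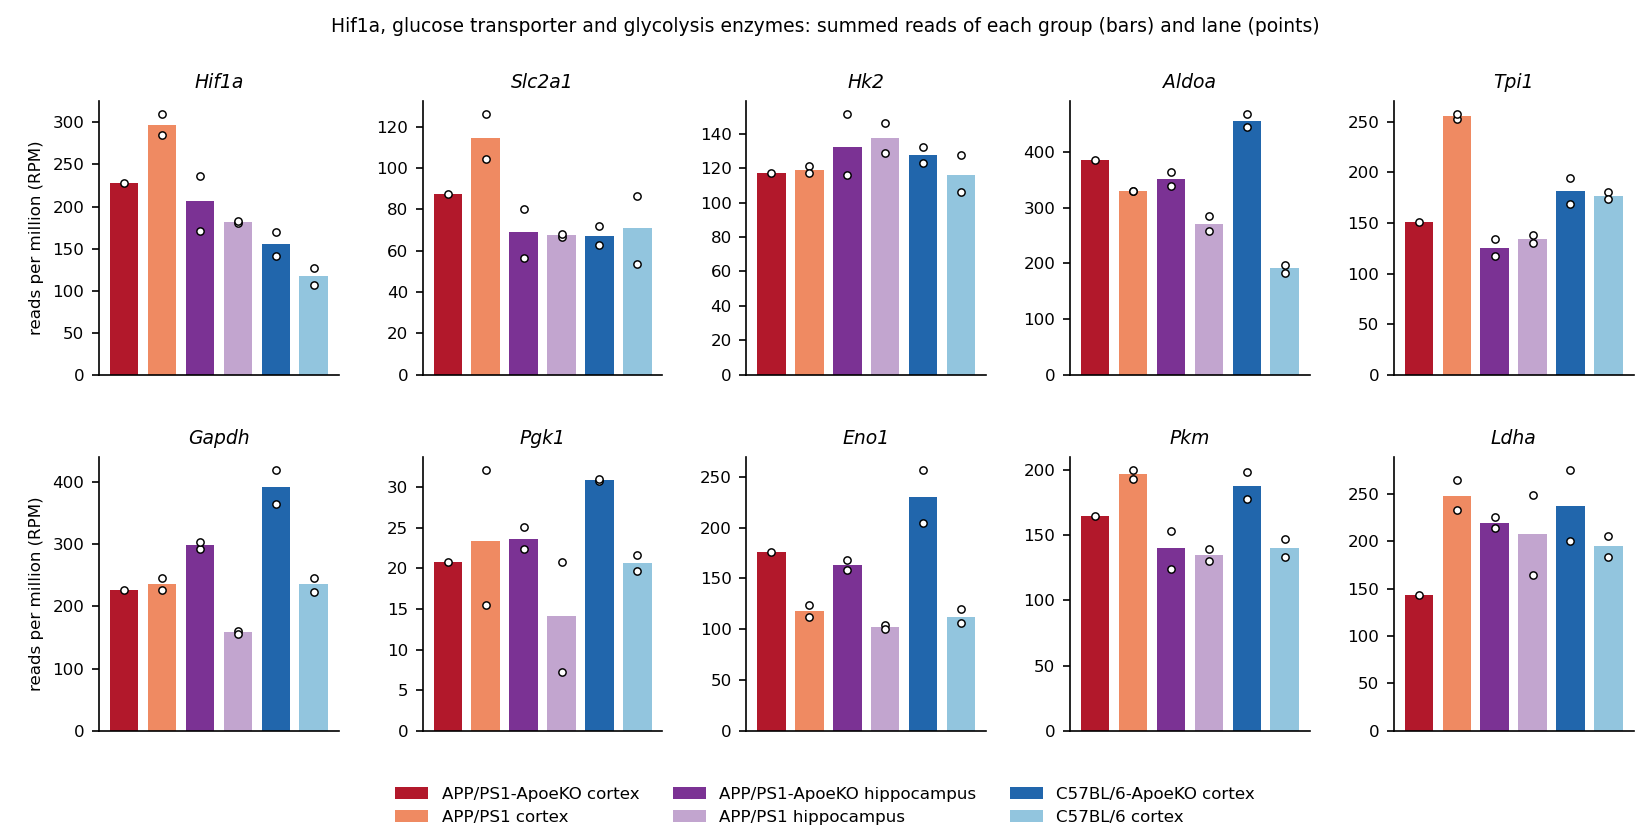
Level of each member in RPM (vertical axis) in the 6 groups, with bars for the summed reads of a group and points for its sequencing lanes. Hif1a and Slc2a1 stood highest in APP/PS1 cortex, Aldoa, Gapdh, Eno1 and Pgk1 in C57BL/6-ApoeKO cortex, and Hk2 kept between 116.1 and 137.5 RPM.

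Stretches before the RefSeq start of 5 members are shown because HIF-1 is known to bind the core ACGTG or GCGTG. These members are Hif1a itself and the enzymes after the triose phosphates whose window there held the core, chosen once the matches were known. The stretches come from RefSeq on GRCm38.p6 and are written 5′ to 3′ along the gene, with capitals for ACGTG or GCGTG on either strand. CACGTG holds ACGTG on both strands and was counted as 1 match. The Hif1a stretch is chr12:73907717-73907816 on the plus strand, Ldha chr7:46845644-46845789 on the plus strand, Pgk1 chrX:106186935-106186988 on the plus strand, Gapdh chr6:125165798-125165842 on the minus strand and Eno1 chr4:150236463-150236497 on the plus strand.
Hif1a: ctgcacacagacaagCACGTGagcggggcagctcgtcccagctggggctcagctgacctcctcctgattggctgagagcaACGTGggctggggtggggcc
Ldha: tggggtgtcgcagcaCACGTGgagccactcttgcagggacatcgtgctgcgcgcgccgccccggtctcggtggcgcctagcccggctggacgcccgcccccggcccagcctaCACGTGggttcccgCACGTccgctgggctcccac
Pgk1: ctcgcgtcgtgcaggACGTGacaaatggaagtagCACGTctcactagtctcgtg
Gapdh: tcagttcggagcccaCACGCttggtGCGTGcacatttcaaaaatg
Eno1: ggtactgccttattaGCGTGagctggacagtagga

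In the 250 bases before the RefSeq start, Ldha held 3 matches, Hif1a, Gapdh, Pgk1, Hk2 and Slc2a1 held 2 each and Eno1 held 1. Aldoa, Pkm and Tpi1 held none of these letters in that window. The core stood in 7 of the 10 members (70%), against 38.6% of 27025 genes with such a window, and 6 members (60%) held 2 or more, against 13.7% of those genes. The RefSeq start can lie inside the GENCODE gene: in Hif1a, Ldha, Gapdh and Aldoa the whole window lies within the gene span given above. Of the 250 bases, 0 in Aldoa, 42 in Pkm and only a part in Tpi1 and Slc2a1 lay before the first GENCODE exon that the window met. In the other members no GENCODE exon fell within the 250 bases. These matches describe the letters alone.

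Hif1a was higher in cells with Cst7 reads than in cells without in all 6 groups, and so were Gapdh, Eno1 and Pkm, while Hk2 showed no common direction. Cst7 reads were found in 25 cells of APP/PS1-ApoeKO cortex (14.8% of its cells), 81 of APP/PS1 cortex (26%), 38 of APP/PS1-ApoeKO hippocampus (11.8%), 35 of APP/PS1 hippocampus (12.8%), 39 of C57BL/6-ApoeKO cortex (12.5%) and 8 of C57BL/6 cortex (2.45%). Reads were summed over the cells of each kind, and such a sum cannot tell fewer cells with a transcript from less RNA per cell. Members with a ratio above 1 numbered 10 of 10 in APP/PS1-ApoeKO cortex (40.8% of all genes tested), 9 in APP/PS1 cortex (40.6%) and 8 in APP/PS1-ApoeKO hippocampus (41.9%). They numbered 8 in APP/PS1 hippocampus (33.4%), 10 in C57BL/6-ApoeKO cortex (44.3%) and 6 in C57BL/6 cortex (32%). At least 1.5-fold higher were 6 members in APP/PS1-ApoeKO cortex (23.6% of all genes), 8 in APP/PS1 cortex (19.2%) and 2 in APP/PS1-ApoeKO hippocampus (22.1%). The count was 5 in APP/PS1 hippocampus (18.3%), 3 in C57BL/6-ApoeKO cortex (23.3%) and 3 in C57BL/6 cortex (21.7%), so that in APP/PS1-ApoeKO hippocampus, C57BL/6-ApoeKO cortex and C57BL/6 cortex the members' share lay near that of all genes.

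Hif1a had 434.9 RPM in cells with Cst7 reads and 192.2 RPM in cells without in APP/PS1-ApoeKO cortex, a ratio of 2.26 (95% interval 2.19 to 2.34, for counting error only, here and below, since no molecular identifiers mark single molecules). It had 483.8 against 227.3 RPM in APP/PS1 cortex, 323.4 against 190.2 RPM in APP/PS1-ApoeKO hippocampus and 334.3 against 157.4 RPM in APP/PS1 hippocampus. In C57BL/6-ApoeKO cortex it had 167.1 against 153.5 RPM, and in the 8 Cst7 cells of C57BL/6 cortex 403.9 RPM, against 110.97 RPM in cells without. The ratio was thus at least 1.70 in 5 groups and 1.09 in C57BL/6-ApoeKO cortex. The share of thinned cells with a Hif1a read was also higher in Cst7 cells in all 6 groups, for example 66.7% of Cst7 cells and 45.2% of cells without in APP/PS1 cortex, and 39.5% against 34.8% in C57BL/6-ApoeKO cortex.

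Upstream in the pathway the picture was mixed. Slc2a1, the glucose transporter GLUT1, had 126.3 RPM in Cst7 cells and 80.7 RPM in cells without in APP/PS1-ApoeKO cortex, and 154.9 against 99.5 RPM in APP/PS1 cortex. In the other 4 groups its ratio lay between 0.969 and 1.22. Hk2, the hexokinase that traps glucose in the cell, had 69.1 RPM in Cst7 cells and 137.5 RPM in cells without in APP/PS1 cortex, a ratio of 0.502 (0.484 to 0.521). It had 218.8 RPM in the 8 Cst7 cells of C57BL/6 cortex and 113.7 RPM in cells without, and its ratio was between 0.766 and 1.17 in the other 4 groups.

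The enzymes from triose phosphate to pyruvate were higher in most groups. Tpi1, which interconverts the triose phosphates, had 377.8 RPM in Cst7 cells and 210.3 RPM in cells without in APP/PS1 cortex. Its ratio was 1.45 to 1.80 in 5 groups and 0.903 in C57BL/6 cortex. Gapdh, the enzyme that oxidises glyceraldehyde phosphate and forms NADH, had 361.2 RPM in Cst7 cells and 189.8 RPM in cells without in APP/PS1 cortex, and 454.9 against 276.7 RPM in APP/PS1-ApoeKO hippocampus. Its ratio ranged from 1.02 in C57BL/6 cortex to 1.90 in APP/PS1 cortex. The share of thinned cells with a Gapdh read went the other way in APP/PS1-ApoeKO cortex, at 60% of Cst7 cells and 73.6% of cells without. Eno1, which forms phosphoenolpyruvate, had 190.4 RPM in Cst7 cells and 90.9 RPM in cells without in APP/PS1 cortex, and its ratio ranged from 1.04 to 2.09. Pkm, which makes pyruvate and ATP, had ratios of 1.34 to 2.06, the highest in C57BL/6-ApoeKO cortex at 338.8 against 164.1 RPM. Aldoa had 479.04 RPM in Cst7 cells and 238.4 RPM in cells without in APP/PS1 hippocampus, its largest ratio at 2.01, and 133.3 against 192.5 RPM in C57BL/6 cortex, a ratio of 0.692. Pgk1 was read in few cells and varied widely: it had 58.6 RPM in Cst7 cells and 14.1 RPM in cells without in APP/PS1-ApoeKO cortex, 9.34 against 25.6 RPM in APP/PS1-ApoeKO hippocampus, and no read in the 8 Cst7 cells of C57BL/6 cortex. Of thinned cells, 0 of these 8 had a Pgk1 read (exact binomial 95% interval 0 to 36.9%), against 13.5% of cells without Cst7 reads.

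Ldha, which turns pyruvate into lactate, had 267.4 RPM in Cst7 cells and 121.5 RPM in cells without in APP/PS1-ApoeKO cortex, a ratio of 2.20 (2.11 to 2.3). In APP/PS1 hippocampus it had 198.7 RPM in Cst7 cells and 209.1 RPM in cells without, a ratio of 0.95. Ldha ratios in the other 4 groups were between 1.18 and 1.71. Over thinned cells, a Cst7 cell held reads of 5.90 ± 2.24 of the 10 members on average and a cell without held 4.49 ± 2.03 in APP/PS1 cortex (SD over cells). The corresponding means were 5.36 and 4.19 in APP/PS1-ApoeKO cortex, 4.92 and 4.38 in APP/PS1-ApoeKO hippocampus, 5.11 and 3.84 in APP/PS1 hippocampus, 5.76 and 4.6 in C57BL/6-ApoeKO cortex and 5 and 4.08 in C57BL/6 cortex. Median depth per cell was higher in Cst7 cells in 5 groups and lower in C57BL/6 cortex. It was 465507 reads in Cst7 cells and 442604 reads in cells without in APP/PS1-ApoeKO cortex and 634298 and 609612 reads in APP/PS1 cortex, and 712390 and 771371 reads in C57BL/6 cortex. Thinning makes the read total equal and nothing else. The median number of genes read and the median share of ribosomal RNA were also higher in Cst7 cells in all 6 groups, at 2306 genes in Cst7 cells and 2197.5 in cells without and at 14.6% against 12.9% in APP/PS1 cortex, and their part in the result was not tested.

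**Figure D2:**
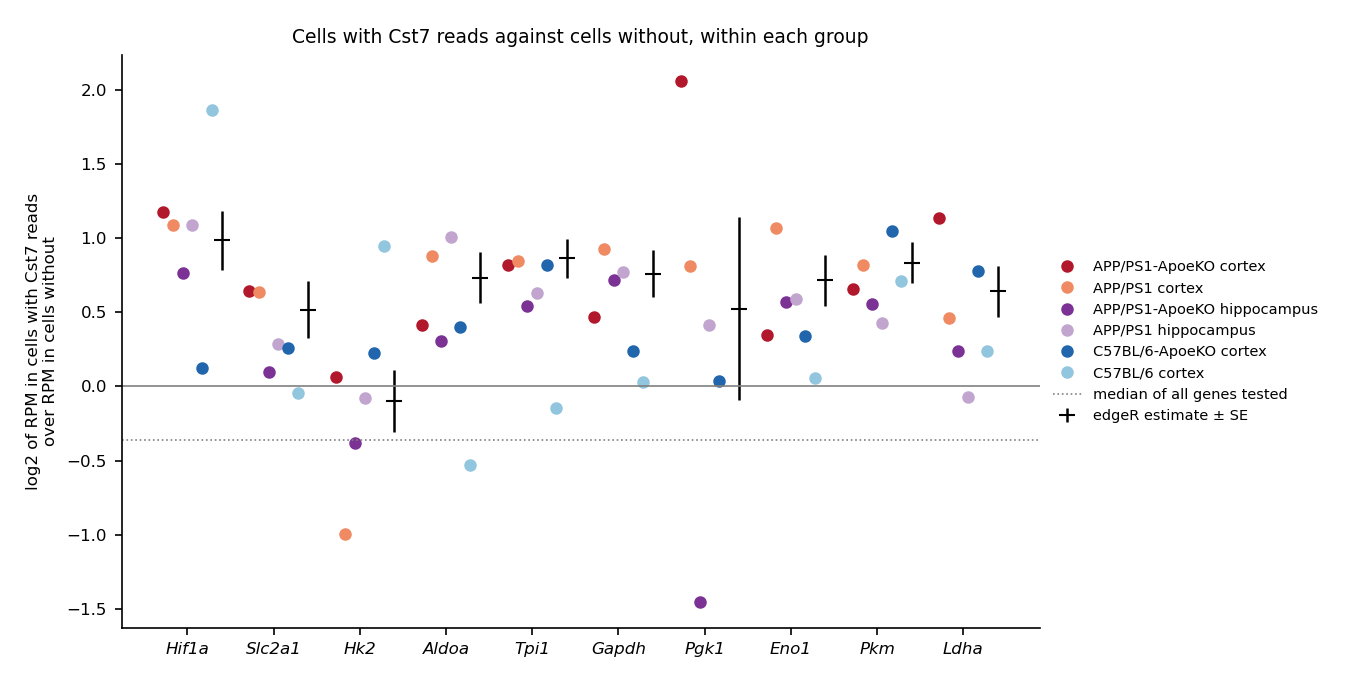
Log2 ratio of RPM in cells with Cst7 reads over RPM in cells without (vertical axis) for each member, with 1 point per group, the edgeR estimate over 5 groups with its standard error, and a dotted line at the median edgeR estimate of all genes tested, -0.36. Hif1a, Gapdh, Eno1 and Pkm lie above 0 in all 6 groups, Hk2 lies on both sides, and the Pgk1 point of C57BL/6 cortex is absent because its Cst7 cells had no read.

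**Figure D3:**
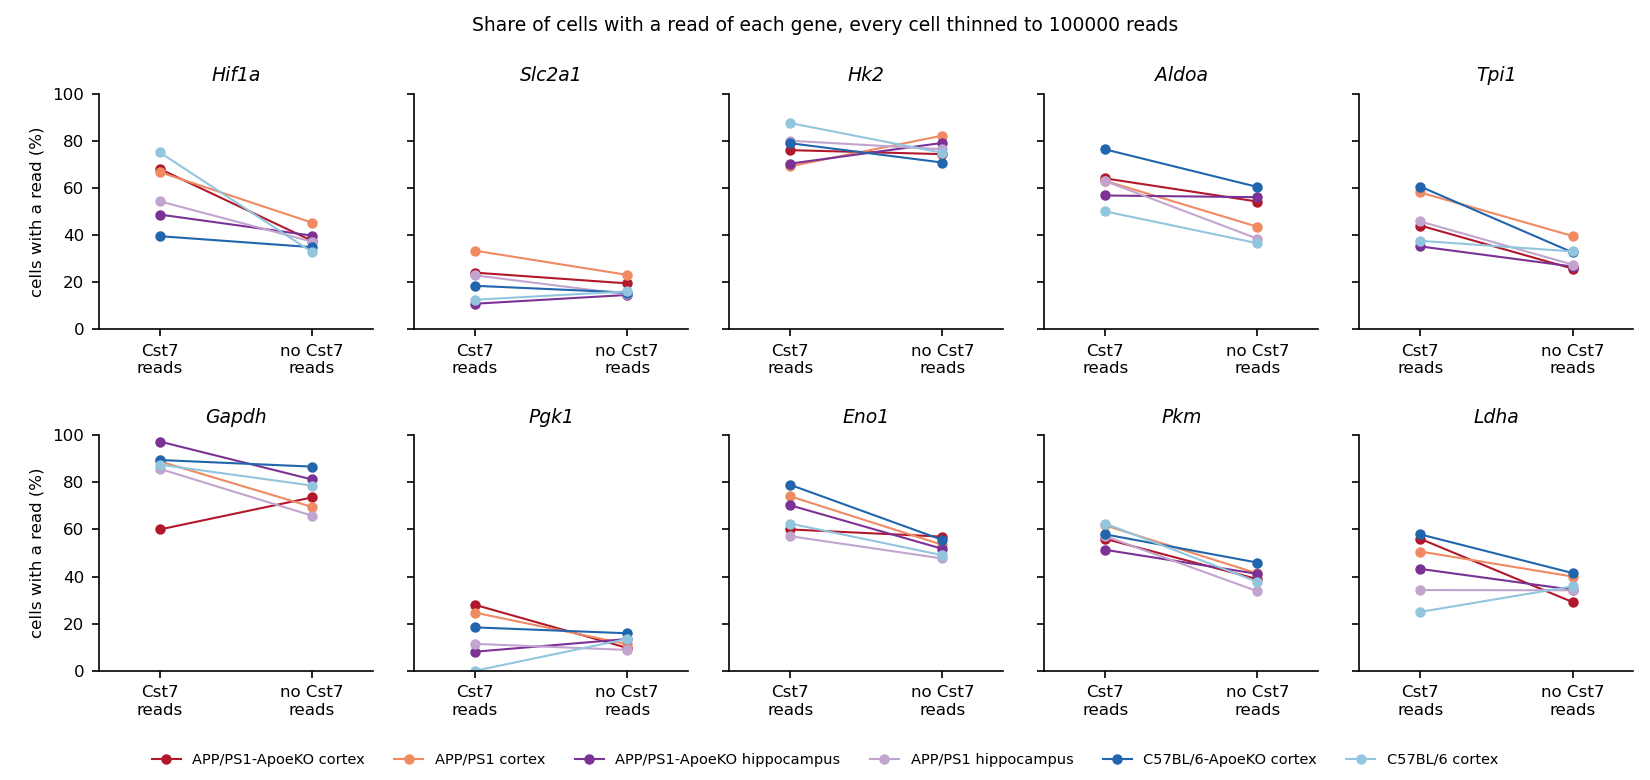
Percent of cells with at least 1 read of each member (vertical axis) after every cell was thinned to 100000 reads, in cells with Cst7 reads and cells without, with 1 line per group. The share of cells with a Hif1a, Aldoa, Tpi1, Eno1 or Pkm read was higher in Cst7 cells in all 6 groups, and the C57BL/6 points rest on 8 Cst7 cells.

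Across the 5 groups with at least 10 Cst7 cells, no member passed the edgeR quasi-likelihood test after Benjamini-Hochberg adjustment over 12566 genes. The fit held a term for each group. Cst7 alone, which defined the cells, passed (0.00796% of genes). Hif1a was estimated at a log2 difference of 0.99 ± 0.20 (SE, adjusted p = 0.440), Tpi1 at 0.87 ± 0.13 (adjusted p = 0.322), Pkm at 0.83 ± 0.14 (adjusted p = 0.334) and Gapdh at 0.76 ± 0.16 (adjusted p = 0.440). Aldoa was at 0.73 ± 0.17, Eno1 at 0.72 ± 0.17, Ldha at 0.64 ± 0.17, Slc2a1 at 0.52 ± 0.19 and Pgk1 at 0.52 ± 0.62, with adjusted p between 0.544 and 0.847. Hk2 was at -0.10 ± 0.21 (adjusted p = 0.914), and without APP/PS1 cortex at 0.0771. The unadjusted p was under 0.05 for 8 members and for 983 genes (7.82%). Of the members 9 of 10 had an estimate above 0 with a median of 0.73, against 29.6% of all genes with a median of -0.36 and 39.3% of the 6363 genes of at least 20 RPM with a median of -0.12.

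The call depended on the tool. DESeq2's Wald test on the same sums called 811 genes (6.45%), with 1.34% of genes higher in Cst7 cells, and 7 members were among those higher. They were Tpi1 (log2 0.93 ± 0.17, adjusted p = 1.01e-05), Pkm (0.90 ± 0.17, adjusted p = 4.59e-05), Hif1a (1.05 ± 0.22, adjusted p = 0.000217), Gapdh (0.82 ± 0.18, adjusted p = 0.000628), Aldoa (0.80 ± 0.18, adjusted p = 0.00118), Eno1 (0.78 ± 0.21, adjusted p = 0.00704) and Ldha (0.71 ± 0.20, adjusted p = 0.0140). Slc2a1 had an adjusted p of 0.15 there. Whether the Cst7 difference itself changed with Apoe was tested as an interaction. edgeR called 0 genes (405 at an unadjusted p under 0.05), and DESeq2 called 419 genes (3.33%). Aldoa was the only member among them, with a smaller Cst7 difference in the ApoeKO groups (DESeq2 log2 -0.73 ± 0.19, adjusted p = 0.00971). C57BL/6 cortex, with 8 Cst7 cells, was not in that fit, and its Aldoa ratio was 0.692. The groups with Apoe were thus the APP/PS1 tissues alone, so Apoe cannot be told apart from transgenes, lane or age there.

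Lists of other genes around the pathway had lower medians than the members. Over all genes tested the median was -0.36 and 29.6% were above 0. Over genes of at least 20 RPM it was -0.12, with 39.3% above 0. Of the lists only the HIF pathway regulators had a median below that of all genes. The glycolysis regulators, the HIF targets outside glycolysis and the mTOR and Akt genes also lay below that of genes of at least 20 RPM. Of the 12 other glycolysis enzymes 6 had an edgeR estimate above 0, with a median of -0.06, and DESeq2 called 1 of them, Pfkl, the liver-type phosphofructokinase (0.81 ± 0.24, adjusted p = 0.0193). Ldhb was at -0.12 ± 0.13, Hk3 at 0.01 ± 0.28 and Gpi1 at 0.45 ± 0.24 in edgeR, none passing. Of 8 measured regulators of glycolysis 1 was above 0, with a median of -0.19, and neither tool called any. Of 8 measured glucose and lactate transporters 5 were above 0, with a median of 0.33, and DESeq2 called Bsg, the chaperone of lactate transporters, higher (0.54 ± 0.17, adjusted p = 0.0299) and Slc2a3, of low count, lower. Slc2a5, a fructose transporter and the most abundant of these, was at -0.15 ± 0.13 in edgeR. Among 13 measured HIF targets outside glycolysis 6 were above 0 with a median of -0.13, and DESeq2 called the heme oxygenase Hmox1 (0.88 ± 0.30, adjusted p = 0.0488) and Bhlhe40. Of 9 HIF pathway regulators 2 were above 0, with a median of -0.51, and neither tool called any. Neither tool called any of the 23 genes of pyruvate entry and the citric acid cycle (9 above 0), the 8 pentose phosphate genes (5 above 0) or the 16 mTOR and Akt genes (2 above 0). Vhl, which marks HIF-1α for destruction, was at -0.08 ± 0.34, and Arnt, which pairs with HIF-1α, was at -0.51 ± 0.54 in edgeR.

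Other activation markers stood higher in Cst7 cells, though not by the edgeR test. Of the 17 genes of the activated microglia list other than Cst7, 16 were above 0 with a median of 1.4. DESeq2 called 11 of them higher and edgeR 0 (11 at an unadjusted p under 0.05). Their summed level was 13447 to 74400 RPM in Cst7 cells and 9503 to 20484 RPM in cells without over the 6 groups. The list holds Apoe, so these ranges also follow Apoe genotype, and they do not set Cst7 cells against cells without inside a group. The 12 homeostatic genes were above 0 in 2 cases with a median of -0.13, none called by either tool. How much of the members' difference follows activation in general was not tested. Leaving out 12 cells with reads of 3 or more markers of another cell type left the median of the members at 0.74 in edgeR. Summed markers of border macrophages had 0 to 51.6 RPM in Cst7 cells and 0.398 to 4.05 RPM in cells without over the 6 groups, and those of monocytes 0 to 26.3 RPM and 2.72 to 29 RPM. Summed neutrophil markers had at most 0.167 RPM in Cst7 cells and 0.610 RPM in cells without, and those of T or NK cells at most 0.0196 and 0.0291 RPM. Markers of B cells had 384.1 to 859.5 RPM in Cst7 cells and 424.3 to 642.9 RPM in cells without, and those of astrocytes 172.7 to 428.002 RPM and 297.2 to 364.95 RPM. Markers of neurons had 16.5 to 176.1 RPM in Cst7 cells and 23.7 to 70.3 RPM in cells without, those of oligodendrocytes 0.551 to 142.6 RPM and 65.9 to 101.2 RPM, and those of endothelial or mural cells 0 to 39.8 RPM and 4.94 to 28.9 RPM. Immediate early genes had 113.999 to 356.04 RPM in Cst7 cells and 148.1 to 316.6 RPM in cells without. Of these lists DESeq2 called Ighm of B cells higher in Cst7 cells (0.38 ± 0.11, adjusted p = 0.0146), Flt1 of endothelium higher and the immediate early gene Dusp1 lower, both of low count, and edgeR called none. Their part in the members' difference was not tested.

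Between whole groups, Eno1 was higher without Apoe in all 3 comparisons and under TMM scaling, and Aldoa in all 3 except that TMM scaling takes it to a ratio of 0.995 in APP/PS1 cortex. The direction of most other members differed between the comparisons. Each ratio sets 1 sum against 1 and has no test. In APP/PS1 cortex 2 of 10 members were higher without Apoe (60.4% of 12656 genes), with a median log2 ratio of -0.21 against 0.20 for all genes. In APP/PS1 hippocampus 8 members were higher (54.9%), with a median of 0.13 against 0.08. In C57BL/6 cortex 9 members were higher (53.3%), with a median of 0.41 against 0.05. Scaling by TMM moved all genes of the cortex comparison in APP/PS1 by 0.23 on the log2 scale, and those of the other comparisons on Apoe by 0.06 in hippocampus and 0.05 in C57BL/6 cortex.

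Aldoa had 385.4 RPM in APP/PS1-ApoeKO cortex and 329.9 RPM in APP/PS1 cortex (ratio 1.17), and 350.95 RPM in APP/PS1-ApoeKO hippocampus and 271.3 RPM in APP/PS1 hippocampus (1.29). In C57BL/6-ApoeKO cortex it had 456.9 RPM, against 191.1 RPM in C57BL/6 cortex (2.39, 95% interval 2.36 to 2.42). There the lanes of C57BL/6-ApoeKO gave 444.4 and 468.9 RPM and the lanes of C57BL/6 gave 183.4 and 197.96 RPM, with no overlap. In cells with Cst7 reads alone the Aldoa ratio was 0.991 in APP/PS1 cortex and 0.882 in APP/PS1 hippocampus. It was 4.34 in C57BL/6 cortex, against only 8 Cst7 cells with Apoe.

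Gapdh had 297.8 RPM in APP/PS1-ApoeKO hippocampus and 157.9 RPM in APP/PS1 hippocampus (1.89), and 391.04 RPM in C57BL/6-ApoeKO cortex and 235.1 RPM in C57BL/6 cortex (1.66). In cortex of transgenic mice it had 226.1 RPM without Apoe and 236.2 RPM with it (0.957). Pgk1 had ratios of 1.67 in hippocampus, 1.49 in C57BL/6 cortex and 0.889 in APP/PS1 cortex, but its lanes of APP/PS1 mice gave 7.24 and 20.8 RPM in hippocampus and 32.1 and 15.5 RPM in cortex. In Cst7 cells alone its ratio was 0.519 in hippocampus and 1.73 in APP/PS1 cortex. Tpi1 and Ldha were lower without Apoe in APP/PS1 cortex: Tpi1 had 151.5 RPM in APP/PS1-ApoeKO cortex and 255.7 RPM in APP/PS1 cortex (0.592), and Ldha had 143.4 and 247.9 RPM (0.578). In hippocampus and in C57BL/6 cortex the Tpi1 ratios were 0.934 and 1.03 and the Ldha ratios 1.06 and 1.22. Hif1a had 228.5 RPM in APP/PS1-ApoeKO cortex and 296.7 RPM in APP/PS1 cortex (0.77), with ratios of 1.13 in hippocampus and 1.32 in C57BL/6 cortex. In Cst7 cells of C57BL/6 cortex alone it had 167.1 RPM without Apoe, against 403.9 RPM in the 8 cells with Apoe (0.414).

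The remaining members had smaller or opposed differences. Slc2a1 had 87.6 RPM in APP/PS1-ApoeKO cortex and 114.5 RPM in APP/PS1 cortex (0.765), and ratios of 1.03 in hippocampus and 0.948 in C57BL/6 cortex. Pkm had 187.4 RPM in C57BL/6-ApoeKO cortex and 139.8 RPM in C57BL/6 cortex (1.34), with ratios of 1.04 in hippocampus and 0.836 in APP/PS1 cortex. Hk2 had ratios of 0.986 in APP/PS1 cortex, 0.963 in APP/PS1 hippocampus and 1.1 in C57BL/6 cortex.

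Lanes were compared as technical parts of a group. In C57BL/6 cortex the lanes of 6 members lay higher without Apoe with no overlap (21.4% of genes), in APP/PS1 hippocampus 4 (23.7%), and in APP/PS1 cortex 2 higher (48.6%) and 5 lower (25.1%), the last against a single lane of APP/PS1-ApoeKO. The share of cells with Cst7 reads also differed, at 14.8% in APP/PS1-ApoeKO cortex and 26% in APP/PS1 cortex. Among cells without Cst7 reads, Hif1a in APP/PS1 cortex still had 192.2 RPM without Apoe and 227.3 RPM with it (0.846), and 3 members were higher without Apoe (58.7% of genes).

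Amyloid transgenes went with higher Hif1a in cortex whether or not Apoe was present. These comparisons use the same cortex groups as those on Apoe loss, and neither pair of groups shared a lane, so the transgenes cannot be told apart from lane here, nor, with Apoe, from age, which was 17 months in APP/PS1 and 18 months in C57BL/6 mice. APP/PS1 cortex had 296.7 RPM of Hif1a and C57BL/6 cortex 117.6 RPM, a ratio of 2.52 (2.49 to 2.56). APP/PS1-ApoeKO cortex had 228.5 RPM and C57BL/6-ApoeKO cortex 155.3 RPM, a ratio of 1.47 (1.44 to 1.5). With Apoe present, all 10 members had a ratio above 1 (43.3% of genes), with a median log2 ratio of 0.42 against -0.11 for all genes. Without Apoe, 2 members did, Hif1a and Slc2a1 (53.4%), with a median of -0.25 against 0.06.

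In Apoe-bearing cortex Aldoa had 329.9 RPM in APP/PS1 and 191.1 RPM in C57BL/6 (1.73), Slc2a1 114.5 and 71 RPM (1.61) and Tpi1 had a ratio of 1.44. Hk2, Gapdh and Eno1 ratios were 1.02, 1.00 and 1.05. In cortex without Apoe, Gapdh had 226.1 RPM in APP/PS1-ApoeKO and 391.04 RPM in C57BL/6-ApoeKO (0.578) and Ldha 143.4 and 237.2 RPM (0.604). Cst7 cells made up 26% of APP/PS1 cortex cells and 2.45% of C57BL/6 cortex cells. Among cells without Cst7 reads, Hif1a had 227.3 RPM in APP/PS1 mice and 110.97 RPM in C57BL/6 mice (2.05), against a ratio of 1.2 in Cst7 cells (483.8 RPM in APP/PS1 and 403.9 RPM in the 8 cells of C57BL/6). In cells without Cst7 reads 7 members were higher in APP/PS1 (45% of genes), and Gapdh (0.808) and Eno1 (0.810) were lower. Of the lanes, 6 members had all APP/PS1 values above all C57BL/6 values (16.5% of genes), among them Hif1a with 284.7 and 310.2 RPM in APP/PS1 and 106.4 and 127.4 RPM in C57BL/6.

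**Figure D4:**
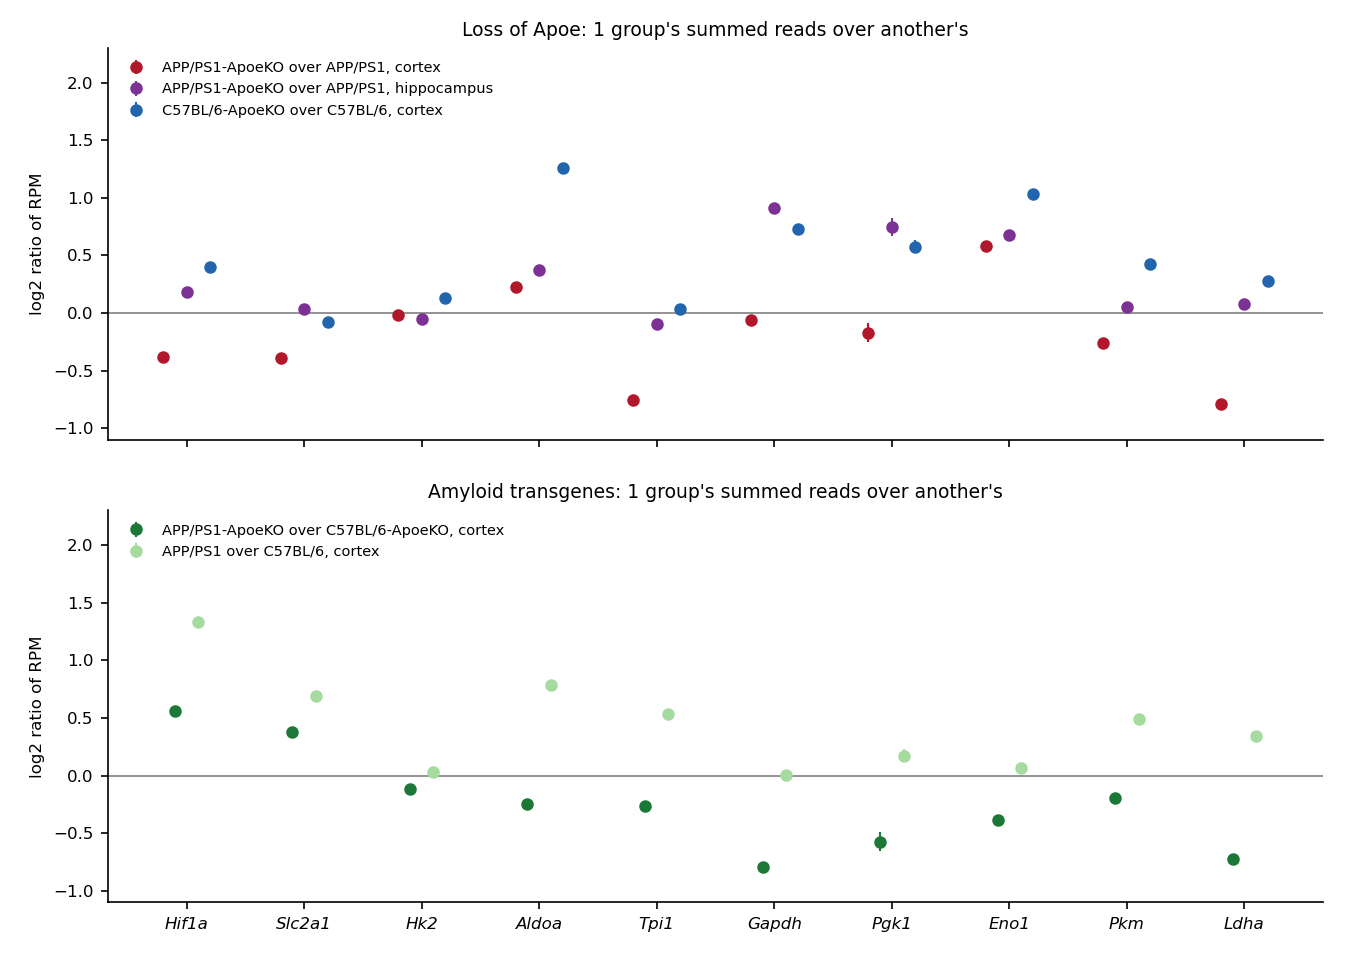
Log2 ratio of RPM of each member for the loss of Apoe (top, 3 comparisons) and for the amyloid transgenes (bottom, with and without Apoe), with 95% intervals for counting error, mostly smaller than the points. Eno1 and Aldoa lie above 0 in all 3 comparisons of Apoe loss, though Aldoa in APP/PS1 cortex falls to a ratio of 0.995 with TMM scaling, and Hif1a lies above 0 in both comparisons of the transgenes.

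Hippocampus had lower levels of most members than cortex in APP/PS1 mice, where both tissues shared their lanes. There 1 member, Hk2, was higher (50% of genes), and the median log2 ratio was -0.56 against 0.00 for all genes. Tpi1 had 134.1 RPM in hippocampus and 255.7 RPM in cortex (0.524), Slc2a1 67.4 and 114.5 RPM (0.588) and Hif1a 181.6 and 296.7 RPM (0.612). Lanes did not overlap for 7 members lower in hippocampus (17.5% of genes). Tpi1 had 130.1 and 137.9 RPM in the lanes of hippocampus and 253.1 and 257.99 RPM in those of cortex. Pgk1 and Ldha went either way by lane: in lane 42 Pgk1 had 20.8 RPM in hippocampus and 15.5 RPM in cortex, and in lane 41 it had 7.24 and 32.1 RPM. In APP/PS1-ApoeKO mice 4 members were higher in hippocampus (42%), or 7 with TMM scaling, which moves all genes by -0.15, and the tissues shared no lane. Ldha had 219.7 RPM in hippocampus and 143.4 RPM in cortex there (1.53) and Gapdh 297.8 and 226.1 RPM (1.32). Cst7 cells made up 12.8% of APP/PS1 hippocampus cells and 26% of APP/PS1 cortex cells, and in cells without Cst7 reads Hif1a had 157.4 RPM in hippocampus and 227.3 RPM in cortex (0.693).

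A fit over the 6 group sums called no member in edgeR for any contrast. It had 1 sum per group and few more sums than terms. Apoe itself, the deleted gene, was not called for Apoe loss in edgeR (-13.05 ± 2.41, adjusted p = 0.191). The lack of an edgeR call therefore does not show that a member was unchanged. For Apoe loss edgeR called 15 of 12703 genes (0.118%), and Eno1 had a log2 difference of 0.65 ± 0.17 (adjusted p = 0.399), while DESeq2 called 695 genes (5.47%) with Eno1 as the only member (0.66 ± 0.18, adjusted p = 0.00747). For the transgenes edgeR called 0 genes (663 at an unadjusted p under 0.05) and had Hif1a at 0.97 ± 0.26 (adjusted p = 0.909), while DESeq2 called 1.43% of genes with Hif1a as the only member (0.98 ± 0.25, adjusted p = 0.0102). For hippocampus edgeR called 0 genes (436 at an unadjusted p under 0.05) and DESeq2 92 (0.724%), no member among them. For the interaction of Apoe loss and transgenes all 10 members had an edgeR estimate below 0, with a median of -0.53. Over all genes the median was -0.02, and 49.1% were above 0. That fit had nearly as many terms as sums, each C57BL/6 genotype entered it as 1 sum, and APP/PS1-ApoeKO cortex came from 1 lane. Its standard errors and adjusted p therefore rest on very little spread and are not those of replicated groups. edgeR called 1 gene of that interaction (0.00787%) and DESeq2 1.79% of genes, Aldoa being the only member in DESeq2 (-1.06 ± 0.27, adjusted p = 0.0109, and 0.987 in edgeR).

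Eno1 has a near-identical copy on another chromosome, Eno1b, and the counts of the copy split by Apoe genotype. Eno1 had 176.1 RPM in APP/PS1-ApoeKO cortex and 117.8 RPM in APP/PS1 cortex (1.49), 163.2 RPM in APP/PS1-ApoeKO hippocampus and 102.1 RPM in APP/PS1 hippocampus (1.60), and 230.02 RPM in C57BL/6-ApoeKO cortex and 112.3 RPM in C57BL/6 cortex (2.05). Eno1b had 0.227, 0.0990 and 0.161 RPM in the same 3 ApoeKO groups, against 13.5, 12.2 and 13.3 RPM in the groups with Apoe. As a share of Eno1 this was 0.129%, 0.0607% and 0.07% without Apoe and 11.4%, 12% and 11.8% with it, with no overlap. Of cells with Eno1 reads, 8.29% to 14.1% in ApoeKO groups and 88.2% to 91.2% in groups with Apoe also had Eno1b reads. With the reads of Eno1 and Eno1b added, the ratios for Apoe loss were 1.34, 1.43 and 1.83. The Eno1b difference was -6.51 on the log2 scale in edgeR (adjusted p = 0.0516). The labels do not say how reads of near-identical copies were counted, and the part of Eno1b reads in the Eno1 difference was not tested. Of other copies, Aldoart1, Aldoart2 and Gapdh-ps14 had at most 0.267 RPM in any group.

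**Figure D5:**
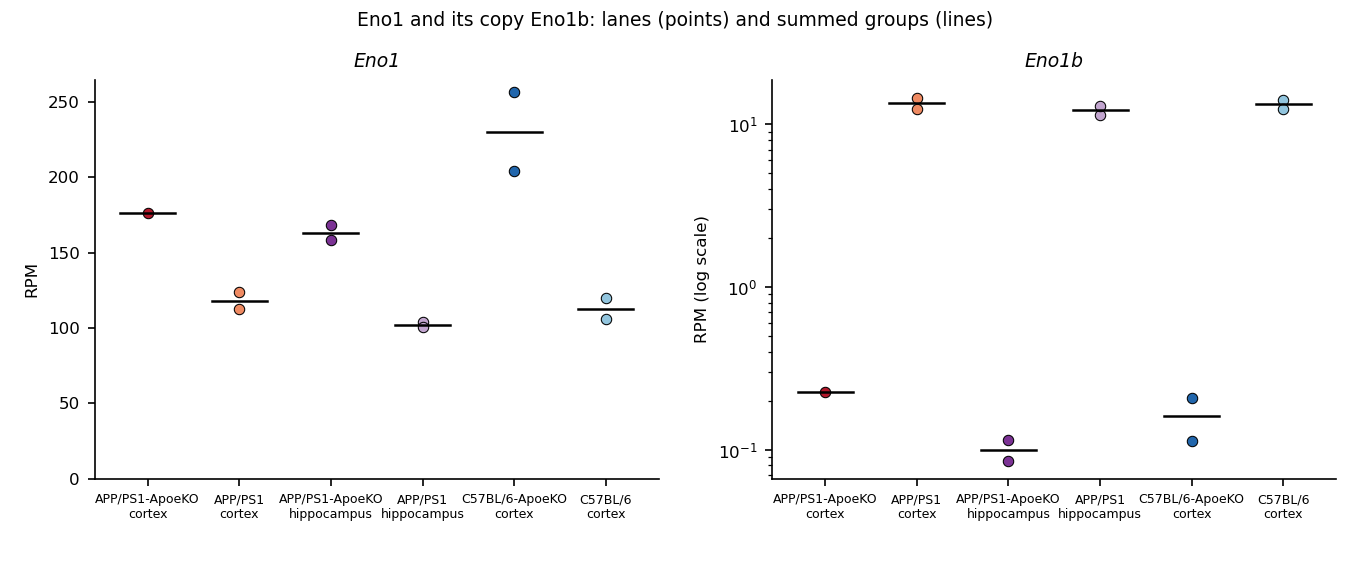
Eno1 (left, linear axis) and Eno1b (right, log axis) in RPM in the 6 groups, with points for lanes and lines for group sums. Eno1b lies at or below 0.227 RPM in the summed ApoeKO groups and at or above 12.2 RPM in the groups with Apoe, and Eno1 lies higher in each ApoeKO group than in its counterpart with Apoe.

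Across cells, members were weakly related. Spearman correlations of RPM within a group, averaged over the 6 groups, ran from -0.02 to 0.19 over the 45 pairs of members, with a median of 0.09, and 42 were above 0. Gapdh and Eno1 had the highest, at 0.19, and the 9 pairs of Hk2 had a median of 0.00. Cells of a group share library preparation and differ in depth, so these values are a description. For likeness a pool of 1423 genes read in at least 30% of cells of every group was used. Members, predicted genes, pseudogenes and mitochondrial genes were left out of it. In that pool the genes most like Hif1a were the cathepsins Ctsd (0.16) and Ctsb (0.13) and the tetraspanin Cd9 (0.14), against a median of 0.03. Over the groups Ctsd ranged from 0.08 to 0.35, Cd9 from 0.05 to 0.33 and Ctsb from -0.005 to 0.32. Among the members, Hif1a had 0.17 with Tpi1, 0.16 with Gapdh and 0.15 with Ldha, and -0.02 with Hk2. The genes most like the summed RPM of the other 9 members were Ctsd (0.24), the actin gene Actb (0.23) and the cytokine gene Mif (0.21), against a median of 0.03.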

How the data were processed

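The authors deposited whole-number read counts per gene and cell. Per the submitters' processing notes, STAR 2.5.2, featureCounts 1.5.1, Seurat 2.3.1 and mm10 were used. The sources used here do not state whether counting was stranded or how reads that match several places were handled. Of 1878 cells, 1713 with a read total in the labels were used (169 and 321 of APP/PS1-ApoeKO cortex and hippocampus, 311 and 273 of APP/PS1 cortex and hippocampus, 313 of C57BL/6-ApoeKO cortex and 326 of C57BL/6 cortex), and 165 APP/PS1-ApoeKO cortex cells without one entered an alternative. Counts were summed per group or per group and Cst7 state (at least 1 Cst7 read) and given as RPM, reads per 1000000. Sums were compared by ratio with exact 95% intervals, and across groups with edgeR 4.0.16 in R 4.3.3 (quasi-likelihood, TMM, at least 1 RPM on average), with DESeq2 1.42.0 as an alternative and an adjusted p threshold of 0.05 over all genes. Code was tested on simulated data. Shares of cells used cells thinned to 100000 reads, which left out 8 shallower cells. Named were the members, the 4 most abundant genes of a list or those called in it, and the 3 genes most like Hif1a and the other members. Cell types were checked with fixed markers. The members and lists were chosen with earlier results of these data known. P-values measure only the spread between these sums. Exon lengths and positions come from GENCODE on GRCm38 and promoters from RefSeq.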

Additional observations from a re-analysis of the deposited data

Results flagged for a closer look

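Hif1a and Pkm lay on opposite sides in the 2 cortex comparisons for the loss of Apoe. For these 2, both lanes of C57BL/6-ApoeKO lay above both lanes of C57BL/6, and the lane of APP/PS1-ApoeKO lay below both lanes of APP/PS1. Of all genes, 21.4% lay higher in this way in C57BL/6 cortex and 25.1% lower in APP/PS1 cortex. By their sums Tpi1, Gapdh, Pgk1, Ldha and Hk2 also lay on opposite sides, with lanes that overlapped in at least 1 comparison. The edgeR interaction was below 0 for all 10 members, lowest for Aldoa at -1.05, so the direction is not particular to Hif1a and Pkm. For Hif1a the log2 ratio for Apoe loss in APP/PS1 cortex minus that in C57BL/6 cortex was -0.78, from 228.5 RPM without Apoe against 296.7 RPM with it in APP/PS1 cortex and 155.3 RPM without against 117.6 RPM with it in C57BL/6 cortex. For Pkm it was -0.68, from 164.2 RPM without Apoe against 196.5 RPM with it in APP/PS1 cortex and 187.4 RPM without against 139.8 RPM with it in C57BL/6 cortex. In cells with Cst7 reads alone the Hif1a ratio was below 1 in both, at 0.899 in APP/PS1 cortex and 0.414 in C57BL/6 cortex (167.1 RPM without Apoe and 403.9 RPM in 8 cells with it). These differences between ratios of single sums were not tested. Over the 6 sums, the edgeR interaction was -0.59 ± 0.40 for Hif1a (adjusted p = 0.999) and -0.62 ± 0.36 for Pkm (adjusted p = 0.988). The APP/PS1 side rests on 1 lane of APP/PS1-ApoeKO cortex, and lane and age cannot be told apart from Apoe there.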

How the results depend on the processing

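No paired analysis was possible because the replicate numbers in the labels are those of wells and pair no samples across groups. The Cst7 fit held a term for each group instead. The number of genes called depended on the tool and the cells. For Cst7 state edgeR called 1 gene (0.00796% of genes), 0.00793% to 0.016% when a group was left out (0.016% without APP/PS1-ApoeKO cortex or C57BL/6-ApoeKO cortex, and so in APP/PS1 groups only), 0.0394% with thinned cells and 0.0159% with all cells, and DESeq2 called 6.45%. For the change of that difference with Apoe edgeR called 0% and DESeq2 3.33%. For Apoe loss edgeR called 0.118%, 0.0237% without a filter on low counts, 0.225% with thinned cells and 0.244% with all cells, and DESeq2 called 5.47%. DESeq2 called 1.43% for the transgenes and 0.724% for hippocampus, where edgeR called 0%. For the interaction edgeR called 0.00787%, 0% without the filter and 0.0155% with thinned cells, and DESeq2 called 1.79%. Members higher without Apoe in APP/PS1 cortex numbered 2, 1 with TMM scaling and 4 with all cells, and in APP/PS1 hippocampus 8, or 4 in Cst7 cells. Members higher in hippocampus of APP/PS1 numbered 1, 3 in lane 42 and 2 in cells without Cst7 reads, and of APP/PS1-ApoeKO 4, 7 with TMM scaling and 2 in Cst7 cells. The Hk2 difference with Cst7 ranged from -0.19 to 0.0771 as groups were left out, above 0 without APP/PS1 cortex (edgeR adjusted p = 0.951). Pgk1 turned to 0.519 for Apoe loss in hippocampal Cst7 cells and to 1.34 for hippocampus in lane 42, and Ldha to 0.95 for hippocampus in APP/PS1-ApoeKO Cst7 cells. Of 48 ratios of at least 1.5-fold, these 3 were the turns among 416 alternative values. Of all ratios, smaller ones included, 54 of 1140 alternative values lay on the other side of 1, 16 of them in Cst7 cells alone. Of alternative values of ratios, 555 moved beyond the counting interval. For Apoe loss in Cst7 cells alone, Hif1a turned to 0.414 in C57BL/6 cortex, and Pgk1 to 1.73 and Hk2 to 1.76 in APP/PS1 cortex. No ratio could be given for Pgk1 against the C57BL/6 Cst7 cells, which had no Pgk1 read. The causes were not tested. The Cst7 rules of thinned cells and of at least 10 reads within groups, and the Eno1 and Eno1b sum, were added after seeing the data. The 8 Cst7 cells of C57BL/6 cortex limit that group.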
